A study of Caenorhabditis elegans with 2 samples.

Results

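Proteasome subunit genes of the nematode Caenorhabditis elegans were examined for binding of the zinc finger factor PQM-1, which acts downstream of insulin signalling, in late embryos. The set holds the 33 protein-coding genes of the Ensembl WBcel235 annotation whose symbol starts with pas-, pbs-, rpn- or rpt-, of 19973 protein-coding genes on the nuclear chromosomes. The rule uses names only, not binding, but the set was chosen with earlier results of these data known. The 14 pas and pbs genes encode the core particle, and the 19 rpn and rpt genes encode the regulatory particle. Whole hermaphrodite embryos of strain OP201, genotype unc-119(tm4063) III; wgIs201, were taken 2 h after synchronization by egg bleaching, and chromatin sheared by sonication was precipitated with an anti-GFP antibody. The strain is 1 transgenic line in which PQM-1 carries a C-terminal GFP-FLAG tag, so tagged protein from the transgene was measured in mixed tissues. There was 1 group with 2 biological replicates, and no untagged or untreated group was analysed here. The deposited lists hold bound regions and no expression values or read counts, so depth is unknown and neither stage nor tissue could be checked against markers.

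The proteasome is the protease complex that degrades proteins marked with ubiquitin. In its core particle, rings of alpha subunits (pas genes) gate the entry to rings of beta subunits (pbs genes), some of which carry the proteolytic sites. The regulatory particle caps the core: its base holds the ATPases that unfold substrates (rpt genes) with scaffold and ubiquitin receptor subunits, and its lid holds the deubiquitylase RPN-11 and its supports. In C. elegans the factor SKN-1 raises proteasome genes when proteasome function is impaired, and the FOXO factor DAF-16, whose target genes PQM-1 also binds, has been tied to rpn-6.1.

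A promoter here covers 1000 bp before and 200 bp after any transcript start of a gene, and a gene is described by the strongest region whose summit lies in it. The signal of a region is the authors' own value and is not scaled between lists, so signals are compared only within a list; q is the authors' false discovery rate. The sequences around 5 of the summits are shown because pas-1 and rpn-3 have the regions that pass q of at most 0.01 in both replicates, rpt-1 has the strongest region among the base genes, rpn-12 lies head to head with another gene of the ubiquitin pathway, and rpt-2 has a SKN-1 pattern close to its summit. The region of rpt-2 is weak (q = 0.67 in the pooled list), and replicate 1 had none in that promoter. The sequences are read from the RefSeq genome of WBcel235 (ce11), on the plus strand, 5' to 3', 100 bp to each side of the summit. Capitals mark matches to the patterns searched, which are described further on, and a sequence with no capitals had none. None of these stretches overlaps an annotated coding exon or untranslated part of an exon.
pas-1 (chrV:14423333-14423533): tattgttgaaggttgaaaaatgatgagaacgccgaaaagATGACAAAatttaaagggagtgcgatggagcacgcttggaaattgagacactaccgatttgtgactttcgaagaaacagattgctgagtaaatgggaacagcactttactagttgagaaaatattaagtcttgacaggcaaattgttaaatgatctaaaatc
rpn-3 (chrIII:8447088-8447288): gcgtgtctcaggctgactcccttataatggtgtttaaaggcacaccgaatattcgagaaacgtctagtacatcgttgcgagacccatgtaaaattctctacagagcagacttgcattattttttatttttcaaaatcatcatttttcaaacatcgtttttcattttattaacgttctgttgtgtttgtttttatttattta
rpt-1 (chrV:11982456-11982656): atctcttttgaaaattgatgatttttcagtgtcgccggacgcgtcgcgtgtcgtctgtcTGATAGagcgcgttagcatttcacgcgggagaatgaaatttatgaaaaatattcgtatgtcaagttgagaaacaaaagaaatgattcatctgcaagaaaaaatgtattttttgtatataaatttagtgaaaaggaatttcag
rpn-12 (chrII:11652838-11653038): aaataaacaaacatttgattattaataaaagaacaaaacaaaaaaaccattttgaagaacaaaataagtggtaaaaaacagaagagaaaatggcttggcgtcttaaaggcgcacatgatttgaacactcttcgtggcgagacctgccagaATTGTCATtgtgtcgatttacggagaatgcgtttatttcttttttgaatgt
rpt-2 (chrV:6017706-6017906): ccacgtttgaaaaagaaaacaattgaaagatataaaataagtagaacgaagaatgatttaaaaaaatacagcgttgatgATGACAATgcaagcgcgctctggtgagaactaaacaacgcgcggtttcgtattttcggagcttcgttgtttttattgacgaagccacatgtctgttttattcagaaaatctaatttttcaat

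Most proteasome genes had some region in their promoter, but few had a strong one. In the relaxed pooled list, which holds 27694 regions down to background level, 24 of 33 members (72.7%) had a promoter region, against 41.1% of all protein-coding genes. At q of at most 0.01 these were 4 of 33 (12.1%), against 4.67% of all genes: the alpha subunit genes pas-1 and pas-3 and the lid genes rpn-3 and rpn-11. Of these, pas-1, pas-3 and rpn-3 were in the authors' reproducible list of 669 regions (9.09%, against 2.75% of all genes), at ranks 529, 594 and 633, that is in its weaker part. The reproducible list ends at a signal of 82.03, and the strongest member region, that of pas-1, had 90.09 where the strongest region of the whole list had 756.04. With 1 group of samples there is no contrast to test, so these shares are descriptions.

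Much of the count of 24 rests on regions that also lie in the promoter of a neighbouring gene. When each region was given only to the gene whose transcript start was nearest, 13 of 33 members (39.4%) had one, against 34.6% of all genes, which is near the background. Under that assignment rpn-3 was the 1 member left in the reproducible list (2.01% of all genes), and rpn-3 and rpn-11 were left at q of at most 0.01 (6.06%, against 3.53%). The regions of pas-1 and pas-3 were then given to rpoa-12 and use-1.

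**Figure D1:**
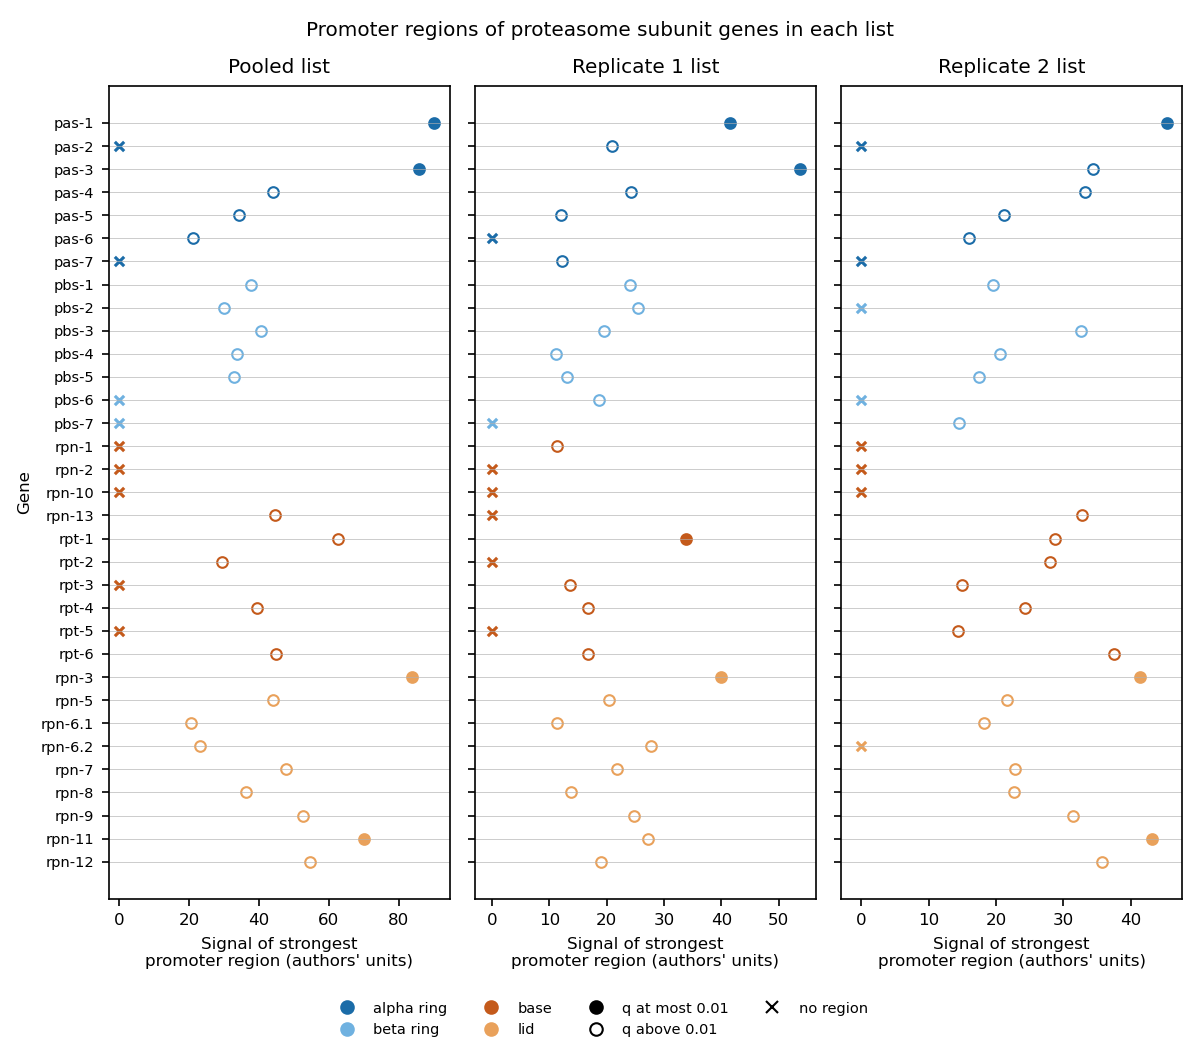
Signal of the strongest promoter region (x axis, the authors' units, a separate scale for each list) of each of the 33 genes (y axis) in the pooled list and in each replicate's list. Filled points have q of at most 0.01, open points a higher q, and crosses at 0 mark genes with no region; pas-1 and rpn-3 are filled in all 3 panels, and rpn-2 and rpn-10 are crosses in all 3.

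Among the alpha ring genes, pas-1 and pas-3 stood apart from the rest. The region of pas-1 (WBGene00003922, chromosome V, gene from 14421566 to 14422618, minus strand) ran from 14423218 to 14423647 with a pooled signal of 90.09 (q = 0.0028). In the replicates' own lists its signal was 41.42 (rank 529, q = 0.0028) and 45.34 (rank 789, q = 0.0057), with summits within 1 bp of the pooled one. That summit, between genes, lay 815 bp upstream of pas-1 and 129 bp upstream of rpoa-12, a gene of an RNA polymerase I subunit on the same strand. The region of pas-3 (WBGene00003924, chromosome I, gene from 5105110 to 5106048, minus strand) had a pooled signal of 85.83 (q = 0.0059), with 53.78 in replicate 1 (rank 231, q = 0.0021) and 34.43 in replicate 2 (rank 1724, q = 0.023). Replicate 1 thus ranked pas-3 highest of all members, whereas in replicate 2 it missed q of at most 0.01. Its summit at 5106198 was 150 bp upstream of pas-3 and 6 bp upstream of the divergent gene use-1, which encodes a relative of a vesicle fusion SNARE.

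The other alpha ring genes had weak regions or none. The region of pas-4 had a pooled signal of 43.94 (q = 0.17) and is shared with rpb-3, a gene of an RNA polymerase II subunit. That of pas-5 (34.28, q = 0.49) lay 971 bp upstream, almost at the edge of the window, and within 200 bp of a snoRNA gene, the only member region beside a small RNA gene. That of pas-6 (21.13, q = 0.93) was near the lowest signal in the list, 19.46. No pooled region lay in the promoters of pas-2 and pas-7, each of which had one in replicate 1 alone (20.93 and 12.26).

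No beta ring gene passed q of at most 0.01 in any of the 3 lists. The strongest was pbs-3 (WBGene00003949, chromosome II, gene from 4954480 to 4955427) with a pooled signal of 40.63 (q = 0.26), and its strongest regions in the replicates had 19.56 (q = 0.32) and 32.66 (q = 0.045). The pooled summit, 140 bp upstream of pbs-3, fell in the annotated 3' untranslated part of the neighbour ulp-2. Replicate 1 had no region at that summit, and its value is that of another region, 678 bp upstream. Next was pbs-1 (WBGene00003947, chromosome IV, gene from 1708814 to 1709745), whose relatives carry 1 of the proteolytic sites, with 37.81 in the pooled list (q = 0.35), 24.14 in replicate 1 (q = 0.11) and 19.53 in replicate 2 (q = 0.63). Its summit lay 826 bp upstream, in a coding exon of K08D12.3. The other regions, of pbs-2, pbs-4 and pbs-5, had pooled signals of 29.92 to 33.66. No pooled region lay in the promoters of pbs-6, which had a region in replicate 1 alone (18.71, q = 0.37), and pbs-7, in replicate 2 alone (14.5, q = 0.92).

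In the base, 5 of 10 genes (50%) had a pooled region, near the 41.1% of all genes, and 4 of these were among its 6 ATPase genes. The base was at 50% in replicate 1 as well, but at 70% in replicate 2, close to the 71.4% of the alpha and of the beta ring there. The strongest was that of rpt-1 (WBGene00004501, chromosome V, gene from 11980534 to 11982397), between genes and 159 bp upstream, from 11982341 to 11982770. Its pooled signal of 62.59 had q = 0.012, just outside the threshold, and the replicates gave 33.85 (q = 0.0087) and 28.77 (q = 0.13). Its promoter was not shared, so this region belongs to rpt-1 under either assignment. The region of rpt-6 (WBGene00004506, chromosome III, gene from 12370456 to 12372607) had 44.98 in the pooled list (q = 0.15), 16.72 in replicate 1 (q = 0.52) and 37.53 in replicate 2 (q = 0.011). It was 785 bp upstream of rpt-6 and 621 bp upstream of his-72, a histone H3 variant gene, and its summit was inside no region of replicate 1, whose value is that of a region 557 bp upstream. The other ATPase genes with a region were rpt-4 (39.54, q = 0.29) and rpt-2 (29.45, q = 0.67), while rpt-3 and rpt-5 had weak ones in replicate lists alone. The summit at rpt-4 lay in an intron of that gene, 45 bp from the start of nfyc-1. Of the base genes that encode scaffolds and ubiquitin receptors, rpn-13 had a region (44.56, q = 0.16) that replicate 1 lacked. Of the scaffold genes, rpn-1 had one in replicate 1 alone (11.41) and rpn-2 had none in any list. The receptor gene rpn-10 had none in any list either.

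All 9 rpn genes counted as lid here had a pooled region, rpn-6.2 only at an internal start, and 2 of them passed q of at most 0.01. The lid was filled by rpn symbols alone, so a lid subunit under another name is not counted. The gene dss-1, kept in the hand-made list described further on, had no region in any list. The region of rpn-3 (WBGene00004460, chromosome III, gene from 8447353 to 8449346, plus strand) ran from 8446973 to 8447402 with a pooled signal of 83.79 (q = 0.0071). The replicates gave 39.94 (rank 600, q = 0.0025) and 41.37 (rank 1018, q = 0.0074), with summits within 2 bp of the pooled one. It lay 165 bp upstream of rpn-3 and 279 bp upstream of the divergent gene hsp-110, which encodes an exchange factor of HSP70 chaperones. The region of rpn-11 (WBGene00004467, chromosome II, gene from 4043055 to 4044546, minus strand) had 69.99 in the pooled list (q = 0.0064), 27.13 in replicate 1 (q = 0.041) and 43.20 in replicate 2 (q = 0.0050). Its summit sat at the annotated start of the gene, 4044546, and in no other promoter, and the replicates placed it within 17 bp.

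The remaining lid genes ranged from moderate regions to the weakest of all members. The region of rpn-12 had a pooled signal of 54.60 (q = 0.035), with 19.02 in replicate 1 and 35.75 in replicate 2. That of rpn-9 had 52.76 (q = 0.041), with 24.84 and 31.48. Both passed q of at most 0.05 in the pooled list, as did 7 members in all and 7.86% of all genes, and those of rpn-7 (47.71), rpn-5 (44.05) and rpn-8 (36.23) did not. The gene rpn-6.1, whose relatives in other species hold the regulatory particle to the core, had the lowest signal of all 24, 20.45 (q = 0.94), shared with F57B9.1. Its paralog rpn-6.2 had 23.10 (q = 0.88), in its own coding exon 15 bp downstream of a transcript start; it had 27.66 (q = 0.031) in replicate 1 and no region in replicate 2.

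**Figure D2:**
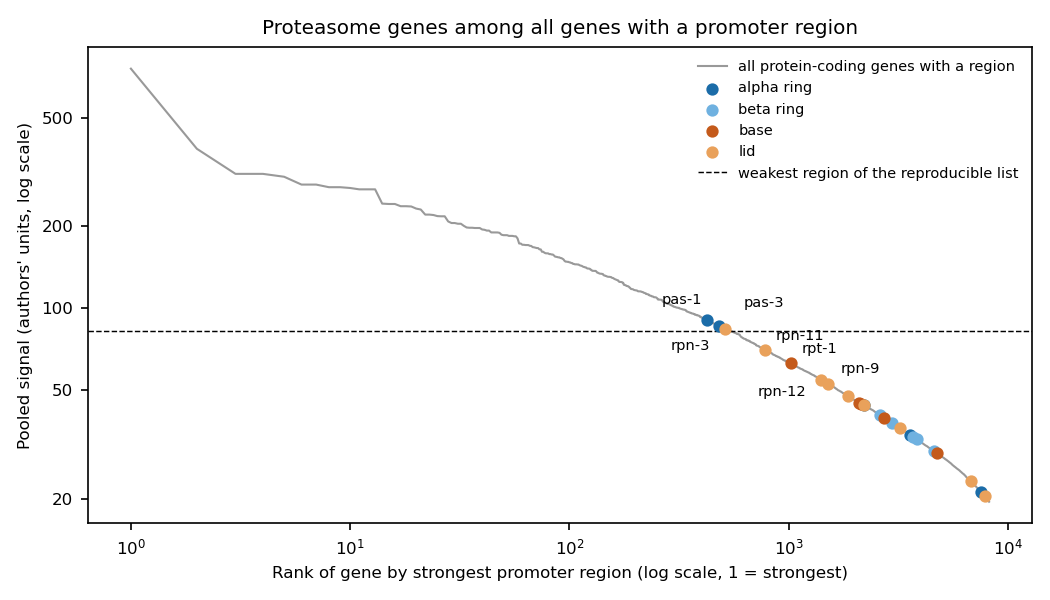
All protein-coding genes with a promoter region, ordered by the pooled signal of the strongest one (grey line, both axes on log scales), with the 24 proteasome genes marked by subcomplex. The dashed line is the weakest region of the reproducible list (82.03); pas-1, pas-3 and rpn-3 lie just above it, and no member is near the top of the order.

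How core and regulatory particle compared depended on the list and on how regions were assigned. Pooled regions were present at 10 of 14 core genes (71.4%) and 14 of 19 regulatory particle genes (73.7%), and 2 of each passed q of at most 0.01. The shares were 85.7% and 73.7% in replicate 1, and 71.4% and 78.9% in replicate 2. With regions given to the nearest start only, 4 core genes (28.6%) and 9 regulatory particle genes (47.4%) had one, against 34.6% of all genes. In a promoter of 500 bp upstream and 100 bp downstream it was 7 (50%) and 13 (68.4%), against 28.9% of all genes. When genes were ranked by their strongest region, with genes without one sharing the last place, the median rank was 3779.5 for the core and 2717.5 for the regulatory particle, against 14091 for all genes, the place shared by genes with no region. In replicate 1 alone the order was the other way, 2897.25 for the core and 3826 for the regulatory particle, and in replicate 2 alone it was 4702.75 and 3091.5. The order of the particles by rank thus differed between the replicates. Within the regulatory particle, 9 of 9 rpn genes counted as lid and 5 of 10 base genes had a pooled region. These were 9 and 5 in replicate 1, and 8 and 7 in replicate 2. A single start was annotated for 4 of the 9 lid genes and 7 of the 10 base genes. With 1 start per gene, 13 regulatory particle genes (68.4%) had a pooled region, against 37.8% of all genes. The only pooled region of rpn-6.2 lay at an internal start, outside the promoter of that setting. Whether these small groups differ was not tested.

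In the pooled list the regions of regulatory particle genes lay nearer to the start, a gap that was smaller in replicate 2. The median distance from the summit to the nearest start of the gene was 362.5 bp for the 10 core regions and 175.5 bp for the 14 regulatory particle regions, against 266 bp for all genes with a region. It was 340 and 185 bp in replicate 1, and 280 and 213 bp in replicate 2. The share of regions within 250 bp of the start was 40% for the core and 71.4% for the regulatory particle in the pooled list. Over all genes with a pooled region, 3958 of 8208 lay within that distance, so the regulatory particle was above this background and the core below it. In replicate 2 the shares were 50% and 53.3%, both near the 3529 of 7422 over all genes with a region there. The gene's own start was the nearest to the summit for 4 of the 10 core genes, pas-5, pbs-3, pbs-4 and pbs-5, and for 9 of the 14 regulatory particle genes, including rpt-1, rpn-3 and rpn-11. Every core gene had a single annotated start, as did 11 of the 19 regulatory particle genes. The median window searched was 1201 bp in both particles and over all genes, but it was 2402, 2262 and 2319 bp for rpt-4, rpn-6.1 and rpn-6.2, so these had more room for a region. Of the 24 summits 21 were upstream of the member's nearest start, a share similar to the 6913 of 8208 over all genes with a region. Between genes lay 15 of the 24, which was not counted over all genes. The summit of rpt-4 is counted as upstream of an internal start, and lay in an intron of rpt-4.

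**Figure D3:**
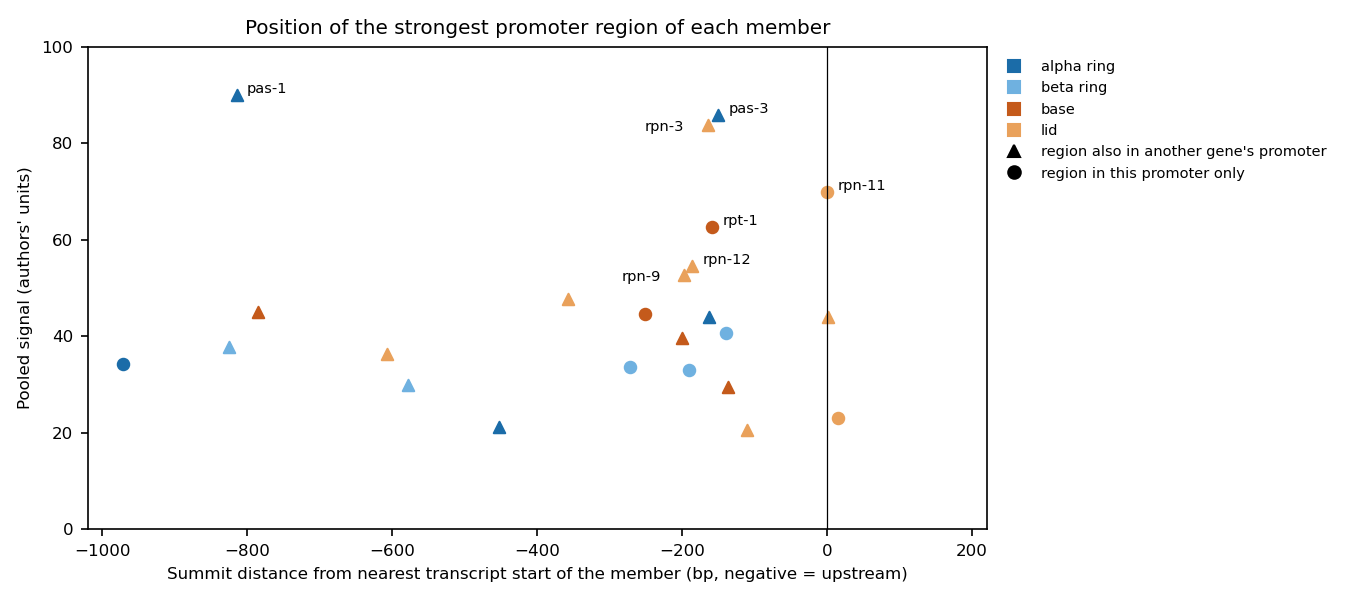
Pooled signal (y axis, the authors' units) against the position of the summit relative to the gene's closest start (x axis, bp) for the 24 genes with a region, coloured by subcomplex. Triangles are regions that also lie in another gene's promoter: pas-1, pas-3 and rpn-3 are triangles, whereas rpn-11 and rpt-1 are circles.

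A feature that the choice by name did not use is the layout of these genes. A protein-coding gene on the other strand began within 1000 bp upstream of 21 of the 33 members (63.6%), against 17.7% of all genes. Such divergent genes more frequently had a pooled region in the genome as a whole (54.8% against 38.2% of the others), and at q of at most 0.01 as well (9.95% against 3.53%). Among the members, 14 of the 21 divergent genes (66.7%) and 10 of the 12 others (83.3%) had a pooled region, so the members' share of any region was above that of all genes in both layouts. At q of at most 0.01 they were 2 of 21 (9.52%), near the 9.95% of all divergent genes, and 2 of 12 (16.7%). The part of layout in the members' counts was not tested further.

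The genes that share these regions have varied roles. Of the 24 member regions, 16 (66.7%) lay in the promoter of 1 other gene as well, against 29.3% of all genes' strongest regions, and in 15 of the 16 cases that gene was on the opposite strand. Besides rpoa-12, use-1, rpb-3, hsp-110, his-72 and F57B9.1 they were eif-6, a translation factor gene (with pbs-2), nfyc-1, a subunit gene of the NF-Y factor (rpt-4), aps-1, an adaptor complex gene (rpt-2), scc-1, a cohesin gene (rpn-5), and mrps-6, of the mitochondrial ribosome (rpn-8). The gene rad-23 (with rpn-12) encodes a receptor that brings ubiquitylated proteins to the proteasome, and CD4.11 (pas-6), rpi-2 (pbs-1), F49C12.9 (rpn-7) and T06D8.9 (rpn-9) complete the list. Peak lists cannot say which gene of a pair a region serves.

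For 15 of the 24 members (62.5%) the pooled summit lay inside a region of each replicate's list, against 51.3% of all genes with a pooled region. These were 6 of 10 core and 9 of 14 regulatory particle genes. With the replicates' regions held to q of at most 0.01, this was so for pas-1 and rpn-3 alone. The share over all genes was not taken at that setting, so whether this is few cannot be said. Replicate 1 had 4 members at that threshold, pas-1, pas-3, rpn-3 and rpt-1 (12.1%, against 3.55% of all genes), and replicate 2 had 3, pas-1, rpn-3 and rpn-11 (9.09%, against 4.88%). None of the 33 was among the 669 strongest regions of replicate 2's own list (2.67% of all genes had one there), whereas pas-1, pas-3 and rpn-3 were in replicate 1 (2.54% of all genes). Any region at all was found for 26 members in replicate 1 (40.9% of all genes) and 25 in replicate 2 (37.2% of all genes), and in all 3 lists for 19 (57.6%, against 24.8%).

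Sequence patterns were searched on both strands within 100 bp of the 24 summits and of the 7053 distinct regions that are strongest for any gene. TGATAAG, the DAF-16 associated element through which PQM-1 is known to act, was at 0 of the 24, against 8.12% of all these regions. The general GATA site, counted as AGATAA, as AGATAG, as TGATAA and as TGATAG, and so including every TGATAAG, was at 5 (20.8%, against 37.7%), those of pas-3, pbs-1, rpn-13, rpn-6.1 and rpt-1. In rpt-1 it reads TGATAG, 38 bp from the summit, in capitals in the sequence given above. CACGTG and the forkhead site GTAAACA were at 0 (4.91% and 2.85% of all regions), and GAGAGAGA was at 1, rpn-6.2 (4.66%).

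The SKN-1 pattern was at 6 of the 24 summits (25%), against 8.68% of all regions. It was counted as any of AATATCAT, AATGTCAT, ATTATCAT, ATTGTCAT, TATATCAT, TATGTCAT, TTTATCAT and TTTGTCAT. The genes were pas-1, pbs-1, rpn-11, rpn-12, rpt-2 and rpt-4, and the match lay 17 bp from the summit at rpt-2 and 27 to 73 bp from it at the others. Of these regions, those of pas-1 and rpn-11 passed q of at most 0.01 in the pooled list, and that of rpn-12 had q = 0.035. Those of rpt-4 (q = 0.29), pbs-1 (q = 0.35) and rpt-2 (q = 0.67) were weak. At rpn-12, rpt-4, rpn-11 and rpt-2 the word was the same, ATTGTCAT on one strand or the other, and at pbs-1 the match overlaps a GATA site. Within 200 bp it was at 7 (29.2%), against 17.8% of all regions, a smaller gap. Within 50 bp of the summit it was left at rpn-11 and rpt-2, 8.33% against 3.84% of all regions. In the fixed window from 250 bp before to 50 bp after the 5' end of the gene, which does not use binding, the SKN-1 pattern was at 11 of all 33 members (33.3%), against 16.5% of 19973 genes, and TGATAAG at 1, rpn-13 (3.03%, against 9.19%). The 11 include pas-2, pbs-6 and rpn-2, which had no pooled region, but not pas-1 or rpt-4. In the same window the general GATA site was at 17 members (51.5%), near the 54.5% of all genes. CACGTG and GTAAACA were at 1 each (5.82% and 4.77% of all genes) and GAGAGAGA at 0 (3.54%). A match is a match of letters and does not show that a factor binds there.

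In the pooled list, some other genes of the ubiquitin and proteasome pathway had regions stronger than any of the subunit genes. A list of 25 such genes was made by hand, with earlier results of these data known, so its shares describe that list only. Of the 25 genes, 16 (64%, against 41.1% of all genes) had a pooled promoter region and 6 (24%, against 4.67%) passed q of at most 0.01. The strongest was that of cdc-48.1, which with cdc-48.2 encodes the segregase ATPase that extracts ubiquitylated proteins from complexes. Its signal was 139.4 in the pooled list (q = 0.0019), 61.38 in replicate 1 and 77.06 in replicate 2. That of let-70, a ubiquitin conjugating enzyme gene, was 129.9, with 49.76 and 75.37 in the replicates. That of cdc-48.2 was 123.8, with 51.99 and 71.44. These and ufd-3, whose product acts with CDC-48 (111.2, with 41.93 and 64.13), were above pas-1, the strongest member, in the pooled list. The shuttle receptor gene ubql-1 (89.54, with 38.76 and 49.85) and the ubiquitin chain elongation gene ufd-2 (80.78) were below it. In replicate 1 only cdc-48.1 was above the strongest member, pas-3 (53.78). In replicate 2 all 6 were above the strongest member, pas-1 (45.34). The other 4 of the 7 genes listed for the CDC-48 complex, cdc-48.3, npl-4.1, npl-4.2 and ufd-1, had no pooled region, so that 42.9% of that list had one, near the 41.1% of all genes. Replicate 1's strongest region at ufd-2 was another one (22.69, q = 0.16), and replicate 2 had 61.18. All but ufd-2 passed q of at most 0.01 in both replicates. The summits of let-70, cdc-48.2 and ubql-1 lay more than 500 bp upstream and are shared with klc-1, ctns-1 and pdi-3. In the promoter of 500 bp upstream and 100 bp downstream these were lost, which left 3 of the 25 genes at q of at most 0.01, against 3.49% of all genes.

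The genes of proteasome recovery gave little signal. The SKN-1 gene itself had a region 549 bp upstream of a start with a pooled signal of 49.05 (q = 0.079) and 33.39 at the same summit in replicate 2 (q = 0.038). Its strongest region in replicate 1, 34.27 (q = 0.0090), was a different one, 71 bp downstream of a start. Neither ddi-1 nor png-1, whose products process SKN-1 for this response, had a pooled region. The ubiquitin genes ubq-1 (46.21) and ubq-2 (33.24), the activating enzyme gene uba-1 (35.45), and the genes of the proteasome deubiquitylases ubh-4 (44.69) and usp-14 (40.31) had regions that did not pass the threshold. Of the rest of the list, sel-1 (29.55, q = 0.66), chn-1 (24.23, q = 0.84) and aip-1 (21.68, q = 0.91) had weak regions. The region of rad-23 is that of rpn-12, and dss-1, psme-3 and sel-11 had none in any list.

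For scale, the 78 cytosolic ribosomal protein genes, picked by the symbols rpl- and rps-, had a pooled region in 89.7% and one at q of at most 0.01 in 33.3% of cases. At that threshold they were at 17.9% in replicate 1 alone and 34.6% in replicate 2 alone. The proteasome genes, at 72.7% and 12.1%, thus lay between these and all protein-coding genes in the pooled list; the difference was not tested.

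**Figure D4:**
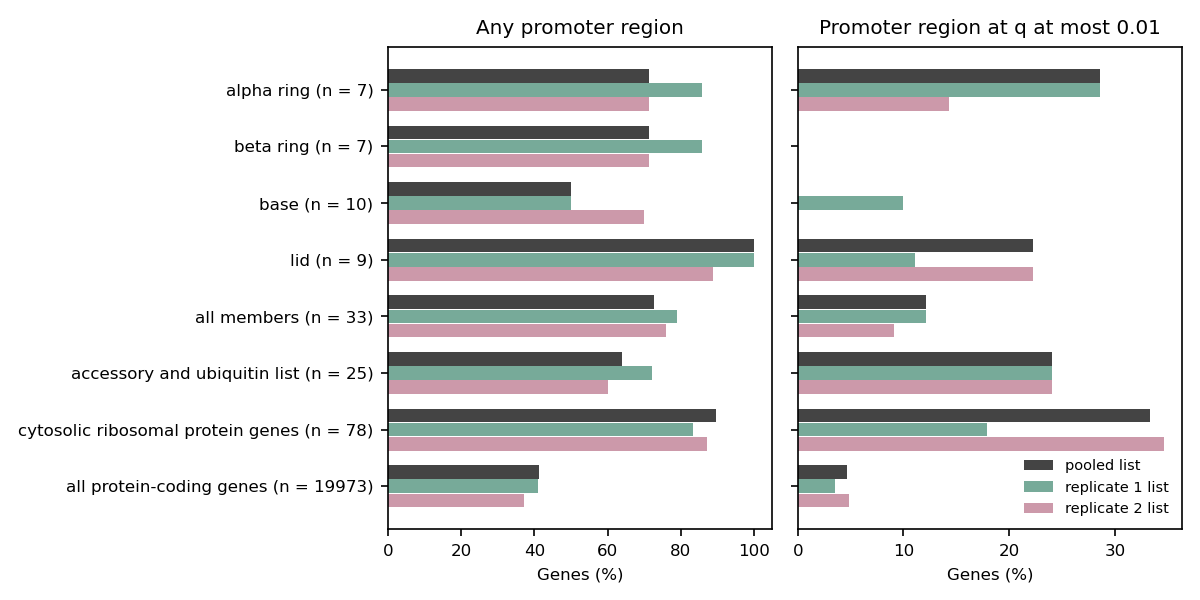
Share of genes (x axis, %) with any promoter region (left) and with one at q of at most 0.01 (right) in the pooled list and in each replicate's list, for each subcomplex, all members, 2 comparison lists and all protein-coding genes. The lid, counted by rpn symbols alone, has a region at every gene in the pooled list (rpn-6.2 only at an internal start) and the base at 50%. No beta ring gene reaches q of at most 0.01 in any list.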

How the data were processed

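The authors deposited peak lists from anti-GFP chromatin immunoprecipitation of 2 biological replicates: per the list names and README text, relaxed lists of the single replicates and of their pool, and a reproducible list made by irreproducible discovery rate from these 3. The sources used here name no aligner, peak caller or threshold. The signal is the deposited peak value, and q was computed from the deposited −log10 q-value. The 4 lists in ce11 were used; lists in ce10 were not used, since no coordinates were converted. Depth is unknown. The ce11 lists match WBcel235, with 0 pooled regions beyond a chromosome end.

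Starts came from Ensembl release 115 (protein-coding transcripts) and sequence from RefSeq WBcel235. Summits were assigned to promoters, genes ranked and patterns searched with Python 3.11.15, numpy 2.4.6, pandas 2.3.3 and matplotlib 3.10.9. Of 200 simulated regions planted in promoters 200 were assigned to their gene. No statistical test was run: 1 group gives no contrast. The members and lists were chosen with earlier results of these data known. Values in every list are given for members at q of at most 0.01 and the 2 strongest of each subcomplex, and for accessory genes at q of at most 0.01 or among the strongest 3; further genes were named after their values were seen. Alternatives were other promoter windows, q thresholds and summit windows, nearest starts only, single replicates and stricter replicate overlaps, and, added after seeing the data, 1 start per gene.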

Additional observations from a re-analysis of the deposited data

How the results depend on the processing

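Of 73 alternative values for 16 results, 45 stayed within 1.5 times the reported count or, for median ranks, within 1 SD of the values of the 2 replicates, and 28 moved. Giving regions to the nearest transcript start only moved the most: members with any region fell from 24 to 13, those in the reproducible list from 3 to 1, those at q of at most 0.01 from 4 to 2 (core from 2 to 0), and those found in both replicates from 15 to 8. The median gene rank of members, core and regulatory particle became 13440.5. That is the last place, shared by all genes with no region in this setting, so it does not order the particles. In each replicate alone, members with any region numbered 25 to 26, among the 669 strongest 0 to 3, and at q of at most 0.01 3 to 4 (core 1 to 2, regulatory particle 2 and 2, pathway genes 6 and 6). The median gene rank ranged over 3601 to 3823.5 for members, 2897.25 to 4702.75 for the core and 3091.5 to 3826 for the regulatory particle. The promoter of 500 bp upstream and 100 bp downstream left 1 core gene (pas-3) and 3 pathway genes at q of at most 0.01 (3.49% of all genes), with median ranks of 4779, 9093.5 and 3359.5 for members, core and regulatory particle. The promoter of 2000 bp upstream and 500 bp downstream gave 3807.5 for members and 3322.5 for the regulatory particle, and brought pbs-5 into the reproducible list. At q of at most 0.05, which 7.86% of all genes passed, 7 members passed, 5 of them in the regulatory particle. No member was in the stronger 50% of the reproducible list (0), and 2 were found in both replicates at q of at most 0.01. Neither count was taken over all genes. Pattern counts at 50 and 200 bp were 2 and 10 for the GATA site (22.2% and 59.9% of all regions) and 2 and 7 for the SKN-1 pattern (3.84% and 17.8%), and at 200 bp 1 for TGATAAG (rpn-6.1; 12.6%) and 1 for GTAAACA (rpt-2; 5.61%). The causes of these moves were not tested, apart from those that the settings make by construction. No region reaches q of 0.001, so that alternative gave no value. No paired analysis was possible because there is 1 group. Read depth is unknown, so no limit from depth can be given.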
